A study of Mus musculus with 10 samples.

Results

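The 10 genes described here encode the bone morphogenetic protein (BMP) ligands Bmp2, Bmp4 and Bmp6, the receptors and co-receptor Acvrl1, Bmpr2 and Eng, the secreted modulator Bmper, the inhibitory SMADs Smad6 and Smad7, and the target gene Id1. They were chosen by gene symbol, each had 1 probe set, and they are 10 of 24704 genes measured. The labels name the cells LSEC, liver sinusoidal endothelial cells, which line the hepatic sinusoids and are perforated by fenestrae, and the mice were female C57BL/6N. CDAA mice were given, from an age of 10 weeks and for 10 weeks, a CDAA diet with 31% of calories as fat and 1% cholesterol, and Std mice a control diet over the same time. As background, the abbreviation is commonly used for a choline-deficient feed with amino acids in place of protein, which causes fatty liver with scarring. Each of the 5 CDAA and 5 Std arrays held RNA from a pool of 3 mice, taken after collagenase digestion with magnetic beads that bind CD146. No genetic change is named in any sample label, although the series' design text mentions mice lacking Gata4. One label field gives the duration as 10 days, and the 10 weeks of the titles and growth protocol were used.

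BMP ligands bind pairs of type I and type II receptors, which phosphorylate SMAD1, SMAD5 and SMAD9. These enter the nucleus with SMAD4 and switch on genes such as the Id genes and the inhibitory Smad6 and Smad7, which then restrain the pathway. In mouse liver, BMP2 and BMP6 made by sinusoidal endothelium act on hepatocytes to induce hepcidin, the hormone that limits iron uptake, while the ALK1 receptor (Acvrl1) with endoglin (Eng) receives circulating BMP9 and BMP10 on endothelium.

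Promoter sequences are shown for Smad6, a feedback gene that fell, and Id2, a BMP target that rose, because both are known SMAD targets and they moved in opposite directions. The RefSeq sequences (GRCm38.p6) span 250 bases before to 50 bases after the gene start and were searched on both strands for GGCGCC, a GC-rich motif bound by SMAD1 and SMAD5, for the palindromic SMAD-binding element GTCTAGAC, and for CAGACA. None of the 3 motifs contains another. Capitals mark the matches. The Smad6 window is chr9:64022010-64022309 on the minus strand and the Id2 window is chr12:25096043-25096342 on the minus strand.
Smad6: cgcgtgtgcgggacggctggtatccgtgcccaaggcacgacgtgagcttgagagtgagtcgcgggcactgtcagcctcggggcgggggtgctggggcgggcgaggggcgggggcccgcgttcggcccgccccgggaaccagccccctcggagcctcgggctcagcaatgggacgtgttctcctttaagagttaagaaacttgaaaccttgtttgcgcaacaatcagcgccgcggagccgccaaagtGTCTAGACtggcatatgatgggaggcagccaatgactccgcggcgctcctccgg
Id2: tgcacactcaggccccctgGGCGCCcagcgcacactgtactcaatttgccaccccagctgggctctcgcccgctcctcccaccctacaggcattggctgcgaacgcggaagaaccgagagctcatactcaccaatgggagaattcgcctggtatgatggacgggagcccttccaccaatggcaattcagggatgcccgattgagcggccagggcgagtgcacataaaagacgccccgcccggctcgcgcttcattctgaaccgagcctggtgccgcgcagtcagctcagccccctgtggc
GTCTAGAC begins at base 247 of the Smad6 window and GGCGCC at base 20 of the Id2 window. Of all 32851 promoter windows, 0.213% hold GTCTAGAC, 11.9% hold GGCGCC and 21.0% hold CAGACA. Of the 10 genes, 6 were matched to an entry (Bmp4, Bmp6, Eng, Bmpr2, Bmper and Smad6). Among them only the Smad6 window held GTCTAGAC, only the Bmpr2 window held GGCGCC, and none held CAGACA. The Id3 window held none of the 3. Bmp2, Acvrl1, Smad7 and Id1 were not matched. A match describes the letters and not binding.

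The isolate held endothelial signal on all arrays, but less of it with CDAA. The mean log2 signal of 12 pan-endothelial markers (among them Pecam1, Cdh5, Kdr and Flt1) was 9.92 to 10.99 on CDAA arrays and 11.25 to 11.39 on Std arrays, and that of 12 LSEC markers (among them Stab2, Clec4g and Oit3) was 10.30 to 11.32 with CDAA and 11.75 to 11.90 with Std. CDAA 3 and CDAA 1 had the lowest pan-endothelial means, at 9.92 and 10.29. Means of recruited macrophage markers were 8.12 to 9.43 with CDAA and 5.24 to 6.18 with Std, of cholangiocyte markers 7.09 to 7.85 and 4.34 to 5.31, and of stellate cell and fibroblast markers 6.79 to 8.29 and 5.83 to 6.35, so none of these overlapped between diets. Hepatocyte marker means were 7.25 to 8.34 with CDAA and 6.79 to 7.46 with Std, and of these 10 markers 4 rose and 2 fell with CDAA. Kupffer cell marker means went the other way, at 7.95 to 8.86 with CDAA and 8.56 to 9.62 with Std. Of these 11 markers 6 fell and none rose. Std 3 stood apart by its neutrophil marker mean of 8.84, against 3.57 to 3.82 on the other Std arrays. Mcam, which encodes the bead target CD146, was at 9.66 ± 0.34 with CDAA and 9.54 ± 0.10 with Std (SD, n = 5 each). In such bulk samples, fewer endothelial cells and less RNA per cell cannot be told apart, and the part of other cells in the values below was not tested except where stated.

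Of the 10 genes, 6 fell with CDAA and none rose (limma, Benjamini-Hochberg adjusted over all genes, threshold 0.05). Over all genes 16.6% were called, 9.13% as lower and 7.49% as higher. Bmp2, Bmp6 and Eng were lower without overlap between diets, as were 7.73% of all genes, with 6.16% higher and 13.9% in either direction. The median CDAA minus Std difference of the 10 genes was -0.64 on the log2 scale, against -0.02 over all genes. For comparison, 9 of the 12 pan-endothelial and 10 of the 12 LSEC markers fell, with median differences of -0.76 and -0.88. Single pan-endothelial markers differed by -1.34 (Flt1) to -0.36 (Egfl7), and single LSEC markers by -2.34 (Cd209b) to -0.41 (Lyve1). Flt1 thus fell by more than Bmp2 (-1.25), and Cd209b by more than Bmp6 (-1.76). In 8 of the 10 genes the lowest CDAA values were those of CDAA 1 and CDAA 3, the pools with the least endothelial signal. The exceptions were Bmp4 and Acvrl1. Bmper and Id1, among the 8, had higher means with CDAA, and in Id1 CDAA 1 (8.62) was hardly below CDAA 5 (8.63). The share of all genes with this order of arrays was not determined.

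**Figure D1:**
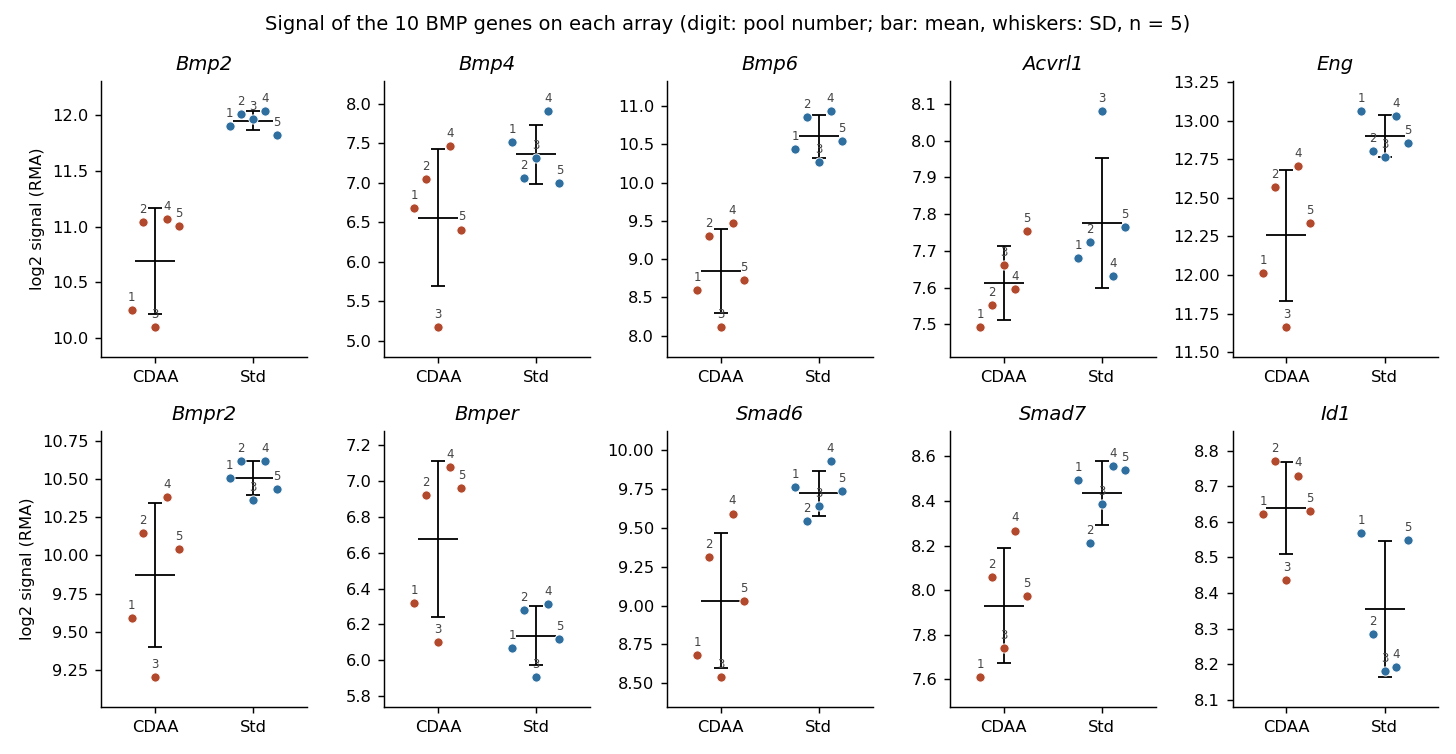
The log2 signal of each of the 10 genes is plotted for the 5 CDAA arrays (red, left) and the 5 Std arrays (blue, right), with the pool number beside each point, the mean as a bar and the SD as whiskers, on an axis of its own that does not start at 0. Bmp2, Bmp6 and Eng show no overlap between diets, and Bmper and Id1 have higher means with CDAA.

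Bmp6 and Bmp2, the endothelial ligands that regulate hepcidin, showed the largest differences among the 10 genes. Bmp6 (probe set 12161_at) had log2 signals of 8.60, 9.30, 8.11, 9.47 and 8.73 on CDAA arrays 1 to 5, against 10.43, 10.85, 10.27, 10.93 and 10.54 on Std arrays 1 to 5. Every CDAA array lay below every Std array. Bmp6 fell by 1.76 ± 0.24 (log2 difference ± SE, limma adjusted p = 0.000498), a 3.40-fold lower signal. Bmp2 (12156_at) had log2 signals of 10.25, 11.04, 10.10, 11.07 and 11.00 on CDAA arrays 1 to 5, against 11.90, 12.01, 11.96, 12.03 and 11.82 on Std arrays 1 to 5. These groups did not overlap either, and the Std arrays lay within a narrow band (SD 0.09) while the CDAA arrays spread more widely (SD 0.47). Bmp2 fell by 1.25 ± 0.19 (limma adjusted p = 0.00103), a 2.38-fold lower signal. Ordered from the largest fall, Bmp6 ranked 26 and Bmp2 ranked 102 among 24704 genes. Both kept their call in each fit that left out 1 array, at -1.92 to -1.58 for Bmp6 and -1.35 to -1.10 for Bmp2. Without CDAA 1 and CDAA 3 together they also passed, at -1.44 and -0.91, where 5.29% of all genes were called lower, 5.28% higher and 10.6% in either direction.

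Bmp4 (12159_at), the close relative of Bmp2, was more variable. Its log2 signals were 6.68, 7.05, 5.17, 7.46 and 6.41 on CDAA arrays 1 to 5, and 7.52, 7.05, 7.31, 7.90 and 6.99 on Std arrays 1 to 5. The groups overlapped, and the lowest value by a wide margin was that of CDAA 3. The difference of -0.80 ± 0.35 (SE, limma adjusted p = 0.153) did not pass, and it shrank to -0.46 without CDAA 3. None of the other 21 fits called Bmp4.

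Among the receptors, the co-receptor endoglin and the type II receptor fell and the type I receptor ALK1 did not pass. Eng (13805_at) had log2 signals of 12.01, 12.57, 11.66, 12.70 and 12.34 on CDAA arrays 1 to 5, against 13.06, 12.80, 12.76, 13.03 and 12.85 on Std arrays 1 to 5. The groups did not overlap, but the highest CDAA array, CDAA 4, at 12.70, came close to the lowest Std array, Std 3, at 12.76. Eng fell by 0.64 ± 0.18 (SE, limma adjusted p = 0.0266), and did not pass without CDAA 1 (-0.58), Std 1 (-0.60) or Std 4 (-0.61). Bmpr2 (12168_at), whose human orthologue is mutated in heritable pulmonary arterial hypertension, had 9.59, 10.15, 9.21, 10.38 and 10.04 on CDAA arrays 1 to 5, against 10.51, 10.62, 10.37, 10.62 and 10.43 on Std arrays 1 to 5. CDAA 4 lay just above Std 3, and all other CDAA arrays lay below the Std arrays. Bmpr2 fell by 0.63 ± 0.19 (limma adjusted p = 0.0391), but this call was lost in 8 of the 10 fits that left out 1 array, at differences of -0.68 to -0.47, and was kept without CDAA 2 or CDAA 4. Without CDAA 1 and CDAA 3 neither receptor passed, at -0.36 for Eng and -0.32 for Bmpr2. Acvrl1 (11482_at) had 7.49, 7.55, 7.66, 7.60 and 7.75 on CDAA arrays 1 to 5 and 7.68, 7.72, 8.08, 7.63 and 7.76 on Std arrays 1 to 5. The groups overlapped, and the highest value was that of Std 3, the pool with the high neutrophil marker mean. The difference of -0.16 ± 0.10 (limma adjusted p = 0.344) did not pass, with a 95% interval of -0.39 to 0.06. This interval does not reach the estimates of Eng and Bmpr2, but overlaps their intervals (-1.03 to -0.26 and -1.05 to -0.22). The genes were not tested against each other. Without Std 3 the Acvrl1 difference was -0.089.

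Bmper, which encodes a secreted protein that binds BMPs and modulates their signalling in endothelium, had a higher mean with CDAA, as did Id1, and neither passed in the fit of all arrays. Bmper (73230_at) had log2 signals of 6.32, 6.92, 6.10, 7.08 and 6.96 on CDAA arrays 1 to 5, and 6.07, 6.28, 5.91, 6.31 and 6.12 on Std arrays 1 to 5. CDAA 2, 4 and 5 lay above all Std arrays, CDAA 1 marginally so, and CDAA 3 among them. Over all arrays the difference of 0.54 ± 0.18 (SE, limma adjusted p = 0.0678) did not pass. It passed in 7 of the other 21 fits, among them without CDAA 3 (0.68) and without CDAA 1 and CDAA 3 (0.85), and the adjusted p over these 21 fits ranged from 0.00158 to 0.142. The 2 pools with the lowest Bmper among the CDAA arrays were those with the most stellate cell and fibroblast signal. Their list means were 8.09 in CDAA 1 and 8.29 in CDAA 3, against 6.79 to 7.60 in the other CDAA pools. Which cells gave the Bmper signal was not tested.

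The inhibitory SMADs fell together, whereas Id1 did not follow them. Smad6 (17130_at), whose promoter is printed above, had log2 signals of 8.69, 9.31, 8.54, 9.59 and 9.03 on CDAA arrays 1 to 5, against 9.76, 9.54, 9.64, 9.93 and 9.73 on Std arrays 1 to 5. The only overlap was that of CDAA 4 with Std 2. Smad6 fell by 0.69 ± 0.18 (SE, limma adjusted p = 0.0211), and did not pass without CDAA 1 (-0.60), Std 1 (-0.68) or Std 4 (-0.64). Smad7 (17131_at), which also restrains TGF-beta signalling, had 7.61, 8.06, 7.74, 8.27 and 7.98 on CDAA arrays 1 to 5, against 8.49, 8.21, 8.38, 8.56 and 8.54 on Std arrays 1 to 5. Here too CDAA 4 lay above Std 2 and the remaining arrays were separate. Smad7 fell by 0.51 ± 0.13 (limma adjusted p = 0.0191), and did not pass without Std 4 (-0.48). Without CDAA 1 and CDAA 3 neither passed, at -0.41 for Smad6 and -0.34 for Smad7. Id1 (15901_at), an inhibitor of helix-loop-helix transcription factors and a direct SMAD target, had 8.62, 8.77, 8.44, 8.73 and 8.63 on CDAA arrays 1 to 5, and 8.57, 8.29, 8.18, 8.19 and 8.55 on Std arrays 1 to 5. CDAA 3 was the single CDAA array that lay below any Std array. The difference of 0.28 ± 0.11 (limma adjusted p = 0.108) did not pass, and none of the other 21 fits called it.

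Since endothelial markers were lower as well, each gene was also set against the pan-endothelial mean of its own array, a comparison chosen after seeing the data. The resulting values are log2 signal minus that mean, and only their difference between diets is read here. The marker mean itself was lower with CDAA by 0.77, so a gene with an unchanged signal gains that much, and the median of all genes shifted by 0.75. Bmp6 was lower relative to the marker mean, at -1.93 to -1.51 on CDAA arrays and -0.98 to -0.44 on Std arrays, a difference of -0.99 (two-sided exact permutation test over the 252 arrangements, p = 0.00794, the smallest it can give). Bmp2 was lower as well, at -0.04 to 0.35 on CDAA arrays and 0.54 to 0.72 on Std arrays, a difference of -0.48 (exact permutation p = 0.00794). For both genes no CDAA array reached any Std array, a pattern in that direction found in 0.389% of all genes, with 51% in either direction. The differences were -0.95 and -0.42 without CDAA 1 and CDAA 3, and -0.81 and -0.30 against the LSEC marker mean, without overlap in either comparison. Against the LSEC mean, 0.158% of all genes were lower without overlap, 72.9% higher and 73.1% either, and of the 10 genes 2 were lower, 7 higher and Bmp4 overlapped. These p-values are not adjusted over the 10 genes tested this way. Subtracting a marker mean shifts the difference of every gene by the same amount. Bmp6 and Bmp2 therefore keep their places, with 0.105% and 0.413% of all genes at an equal or lower difference, as in signal. The relative values say that both fell by more than the marker means, and are no separate support for their falls.

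Eng, Bmpr2 and Smad6 differed less between diets relative to the pan-endothelial mean than in signal. Their relative differences were 0.13 (exact permutation p = 0.0159), 0.14 (exact permutation p = 0.0238) and 0.08 (exact permutation p = 0.302), all with overlap between diets, compared with falls of 0.64, 0.63 and 0.69 in signal. Against the LSEC mean, which was lower with CDAA by 0.95, they were higher by 0.31, 0.32 and 0.26, without overlap (exact permutation p = 0.00794 for each). Over the 5 CDAA arrays the SD of Eng was 0.03 relative to the marker mean and 0.42 in log2 signal, and that of Bmpr2 was 0.05 and 0.47. Smad7 had a relative difference of 0.27 (exact permutation p = 0.0238), or 0.15 without CDAA 1 and CDAA 3 (exact permutation p = 0.107). Bmp4 had a relative difference of -0.03 (exact permutation p = 0.897). For Acvrl1 the relative difference was 0.61 (exact permutation p = 0.0317), close to the shift of all genes.

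Bmper and Id1 were higher relative to the marker mean without overlap. Bmper was at -3.97 to -3.70 on CDAA arrays and -5.34 to -5.02 on Std arrays, a difference of 1.31 (exact permutation p = 0.00794). Its SD over the CDAA arrays was 0.11 relative to the marker mean and 0.44 in log2 signal. Over the Std arrays it was 0.14 and 0.17. Id1 was at -2.26 to -1.48 with CDAA and -3.19 to -2.70 with Std, a difference of 1.06 (exact permutation p = 0.00794), but its SD over the CDAA arrays was 0.32 relative to the marker mean and 0.13 in log2 signal. Higher relative values without overlap were found in 50.6% of all genes, so this alone does not set Bmper and Id1 apart.

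**Figure D2:**
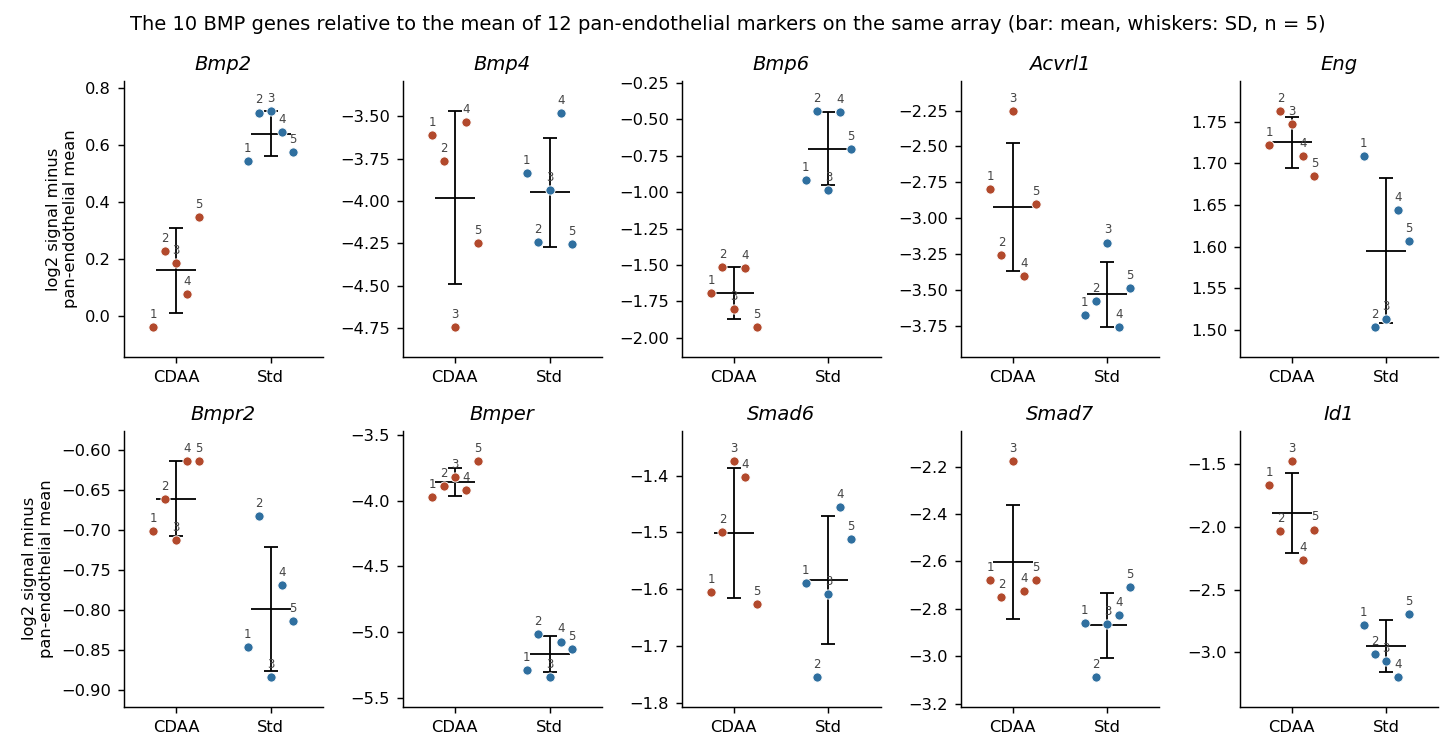
Each panel plots 1 gene as log2 signal minus the mean of the 12 pan-endothelial markers on the same array, for 5 CDAA arrays (red, left) and 5 Std arrays (blue, right), with means as bars and SD as whiskers. Bmp2 and Bmp6 lie lower with CDAA and Bmper and Id1 higher, each without overlap, while Eng, Bmpr2, Smad6 and Smad7 differ by at most 0.27.

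The pan-endothelial or the LSEC mean was also fitted as a covariate. Either mean itself differed between diets without overlap, so these fits can hardly separate it from diet. The SD of the 2 means was 0.06 and 0.05 over the Std arrays and 0.43 and 0.41 over the CDAA arrays. The adjustment therefore rests mainly on the spread of the 5 CDAA pools. With the pan-endothelial covariate 0.801% of all genes were called, 0.567% as higher and 0.235% as lower, and with the LSEC covariate 0.162%, with 0.117% higher and 0.0445% lower. Bmper was the only one of the 10 genes called with these covariates, higher by 1.30 (95% interval 0.94 to 1.67, limma adjusted p = 0.00668) and by 1.51 (1.04 to 1.99, limma adjusted p = 0.0253), within the range of 0.00158 to 0.142 over all 21 other fits. Bmp6 was at -0.79 (95% interval -1.29 to -0.30) and -0.51 (-1.11 to 0.10), and Bmp2 at -0.45 (-0.80 to -0.09) and -0.20 (-0.63 to 0.23), with no call. The estimates of Eng, Bmpr2, Smad6 and Bmp4 turned positive with both covariates, and none of them passed.

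**Figure D3:**
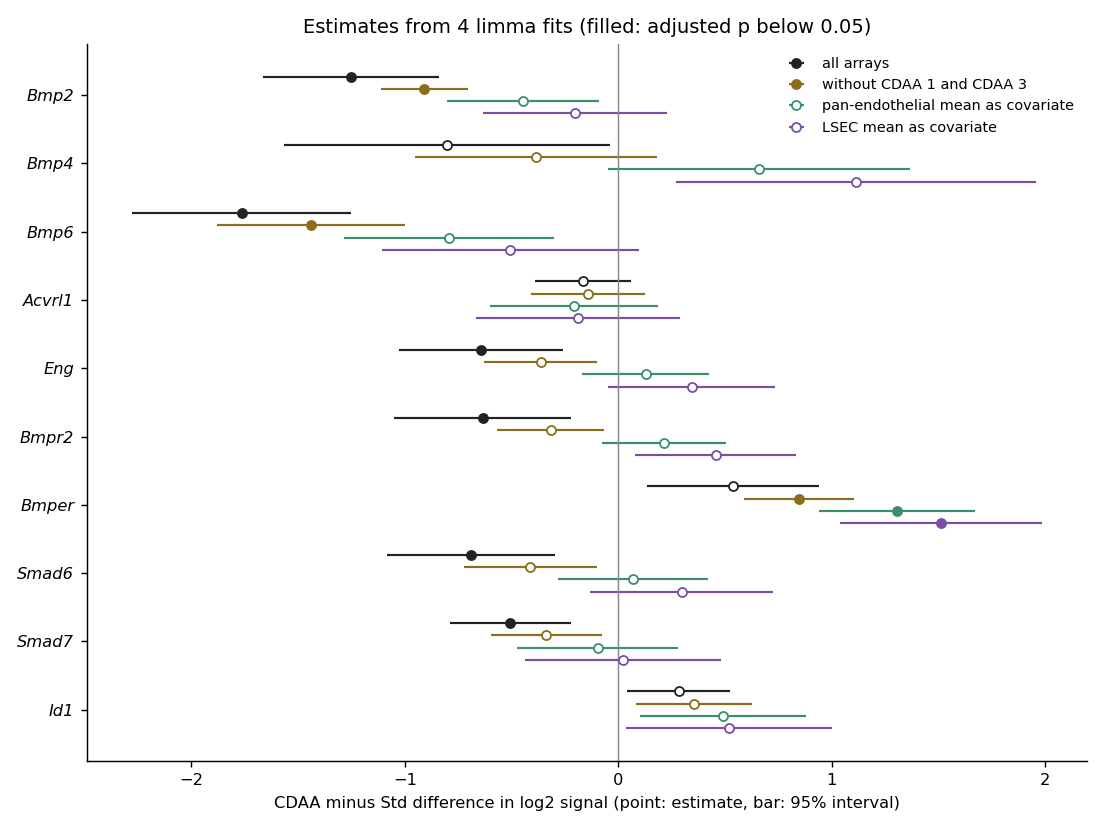
For each of the 10 genes the CDAA minus Std difference in log2 signal (horizontal axis, with 95% intervals) is plotted from 4 limma fits, filled where the adjusted p is below 0.05. The estimates of Bmp2 and Bmp6 stay below 0 in all 4 fits. With either marker mean as covariate neither is filled, and with the LSEC mean both intervals cross 0. Bmper is filled in every fit but that of all arrays, and the estimates of Eng, Bmpr2 and Smad6 cross 0 once a marker mean is a covariate.

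The wider pathway was described from 6 lists, of which 69 genes were measured, and 59 of these are not among the 10. Of these 59, 7 rose and 9 fell, against the 7.49% and 9.13% of all genes. Among 11 further BMP and GDF ligands, only Bmp10 fell. Bmp10, a ligand of ALK1, was at 2.92 ± 0.09 with CDAA and 3.89 ± 0.45 with Std (SD, n = 5 each), and fell by 0.97 (limma adjusted p = 0.00370). All of its CDAA values lay below the median signal of all genes, 3.88, where a signal is not known to exceed background. The other ALK1 ligand, Gdf2, which encodes BMP9, differed by -0.06 ± 0.20 and did not pass.

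Among 10 further receptors and co-receptors, Bmpr1a rose and Tgfbr3, Rgmb, Acvr2b and Acvr1 fell. Bmpr1a, the type I receptor ALK3, had log2 signals of 6.48, 5.88, 6.33, 5.48 and 6.18 on CDAA arrays 1 to 5, against 4.93, 4.92, 4.96, 4.59 and 4.13 on Std arrays 1 to 5. Every CDAA array lay above every Std array, and the highest values were those of CDAA 1 and CDAA 3. Bmpr1a rose by 1.36 ± 0.21 (SE, limma adjusted p = 0.00105), and by 0.80 with the pan-endothelial covariate, where it did not pass. The co-receptor betaglycan, Tgfbr3, fell by 0.81 ± 0.19 to 8.81 ± 0.46 with CDAA, against 9.62 ± 0.15 with Std (SD, n = 5 each), and relative to the pan-endothelial mean it differed by -0.04. Rgmb, a BMP co-receptor of the repulsive guidance molecule family, fell by 0.72 ± 0.15. The type II receptor Acvr2b fell by 0.47 ± 0.12 and the type I receptor Acvr1, known as ALK2, by 0.41 ± 0.11. Acvr1 did not pass in 5 of the 10 fits that left out 1 array, nor did Acvr1 and Acvr2b without CDAA 1 and CDAA 3 (-0.30 and -0.46).

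Of 16 measured extracellular modulators besides Bmper, Fstl1, Fstl3 and Twsg1 rose and Crim1 fell, and 12 did not pass, against 7.49% of all genes higher and 9.13% lower. Of the 17 with Bmper, 10 had a mean below the median signal of all genes. Fstl1, a secreted follistatin-like glycoprotein of mesenchymal cells, was at 7.66 ± 0.16 with CDAA and 6.68 ± 0.17 with Std (SD, n = 5 each), and rose by 0.98 ± 0.11 (SE, limma adjusted p = 0.000166). Fstl3, an activin-binding protein, rose by 0.89 ± 0.14, and Twsg1, a chordin partner that binds BMPs, rose by 0.86 ± 0.11 to 8.02 ± 0.19 with CDAA, against 7.16 ± 0.08 with Std. All 5 CDAA arrays lay above all Std arrays for these 3 genes, while the marker mean of stellate cells and fibroblasts was higher by 1.47 and that of recruited macrophages by 3.19. Crim1, a membrane-bound BMP-binding protein of endothelium and other cells, fell by 0.77 ± 0.17 and differed by 0.01 relative to the pan-endothelial mean. Nog, which encodes the BMP antagonist noggin, was at 3.34 ± 0.13 with CDAA and 3.33 ± 0.11 with Std, below the median signal of all genes.

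The transducing SMADs showed small differences. Smad1 differed by -0.37 ± 0.13 (SE, limma adjusted p = 0.0713), Smad5 by -0.10 ± 0.13, Smad4 by -0.11 ± 0.10 and Smad9 by -0.20 ± 0.12, and none passed. Smad1 passed without CDAA 4 (-0.44) and with genes below the median signal left out (-0.37). Smurf1, a ubiquitin ligase that marks SMADs and BMP receptors for degradation, fell by 0.39 ± 0.10 and was at 7.01 ± 0.14 with CDAA and 7.40 ± 0.11 with Std (SD, n = 5 each), but was not called without CDAA 1 and CDAA 3 (-0.29). Of the 8 genes in this list 3 fell, Smad6 and Smad7 among them, and none rose, against 9.13% of all genes lower and 7.49% higher.

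BMP target genes did not move in one direction. Of 16 measured targets 2 rose and 3 fell, with a median difference of 0.03, against 7.49% of all genes higher and 9.13% lower. Smad6 and Smad7, counted above, were among the 3. Of the 13 targets outside the 10 genes, 2 rose and 1 fell. Id2, the target whose promoter is printed above, had log2 signals of 10.62, 9.80, 10.41, 9.84 and 9.99 on CDAA arrays 1 to 5, against 9.56, 9.20, 9.15, 9.62 and 9.13 on Std arrays 1 to 5. All CDAA arrays were above all Std arrays, with CDAA 1 and CDAA 3 highest, which are also the pools with the most recruited macrophage signal, at 9.22 and 9.43. Id2 rose by 0.80 ± 0.17 (SE, limma adjusted p = 0.00807), and differed by 0.32 with the pan-endothelial covariate, where it did not pass. Id3, the Id gene closest to Id1 in its use as a BMP readout, was at 10.22 ± 0.16 with CDAA and 10.34 ± 0.10 with Std and did not pass. Unc5b, a netrin receptor of endothelium, rose by 0.72 ± 0.19, and the homeobox gene Msx1 fell by 0.47 ± 0.13. Neither passed without CDAA 1 and CDAA 3, at 0.53 and -0.46.

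Hepcidin is made mainly by hepatocytes, whose markers were also detected in the isolate. Hamp, the hepcidin gene, had log2 signals of 7.37, 7.83, 8.40, 6.72 and 7.81 on CDAA arrays 1 to 5 and 7.24, 6.91, 6.10, 7.21 and 6.76 on Std arrays 1 to 5. The groups overlapped, and the difference of 0.78 ± 0.29 (SE, limma adjusted p = 0.0908) did not pass. The highest Hamp value was that of CDAA 3, which also had the highest hepatocyte marker mean, 8.34. Hamp passed without CDAA 4 (1.01), the pool with the lowest hepatocyte mean of the CDAA arrays. CDAA 1 did not follow this order. Its hepatocyte mean of 7.72 was above those of CDAA 2 (7.57) and CDAA 5 (7.45), while its Hamp value was below theirs. Among the Std arrays, Std 3 had the lowest Hamp value (6.10) and Std 5 the lowest hepatocyte mean (6.79). The part of hepatocytes in the Hamp values was not tested. Tmprss6, a protease that restrains hepcidin by cleaving the BMP co-receptor hemojuvelin, rose by 0.93 ± 0.14 (limma adjusted p = 0.00105), and Hfe, the haemochromatosis gene, fell by 0.40 ± 0.11, but was not called without CDAA 1 and CDAA 3 (-0.33).

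**Figure D4:**
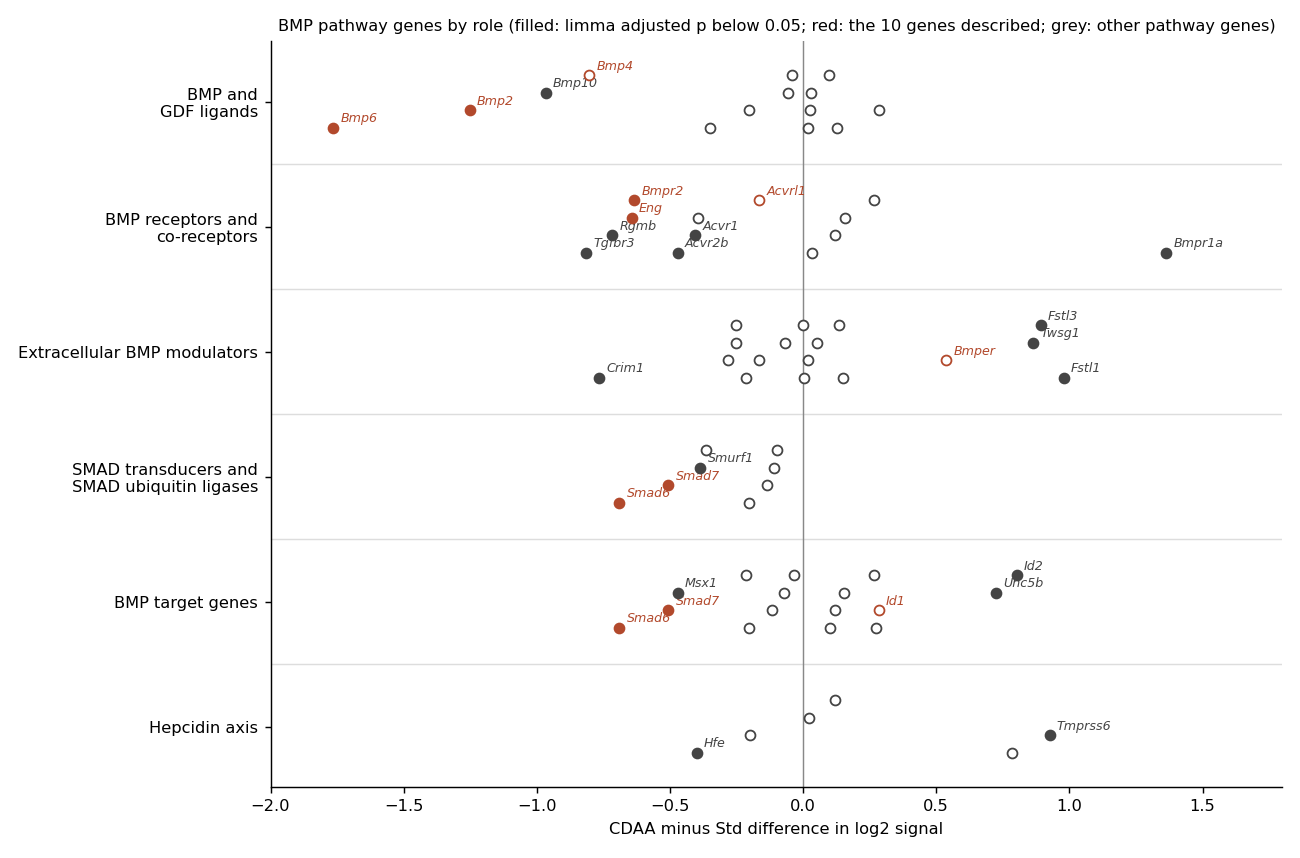
The CDAA minus Std difference in log2 signal (horizontal axis) is plotted for the 69 measured pathway genes in 6 lists by role, with Smad6, Smad7 and other genes of 2 lists drawn in both, filled where the limma adjusted p is below 0.05, and red for the 10 genes described. The ligands Bmp6 and Bmp2 lie farthest to the left, while Bmpr1a, Fstl1, Fstl3, Twsg1 and Id2 lie to the right of 0.

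Genes most alike in pattern were sought among 11427 genes whose mean signal was at least the median of all genes, predicted and small RNA genes left out, by the root mean square difference between the 10 log2 values after subtracting each gene's own mean. For Bmp6 these were Gpr155, Pla2r1 and Ppp1r16b, at 0.16, 0.16 and 0.20, against a median of 0.94 over these candidates. For Bmp2 they were Stard8, Lnx2 and Gstk1, at 0.10, 0.11 and 0.12, against a median of 0.69. For Id1 they were Cavin1, Ubtf and Pecr, at 0.08, 0.09 and 0.10, against a median of 0.34. The measure includes the difference between diets, and the genes nearest to Bmp6 and Bmp2 were lower with CDAA by 1.11 to 1.90.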

How the data were processed

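RNA of 10 cell pools was hybridised to Affymetrix arrays as biotin-labelled cRNA, per the labels' protocols. The table deposited by the authors holds log2 values from RMA (robust multi-array average), per the submitters' processing notes, and its version is not given in the sources used here. This method subtracts background, gives arrays a common distribution and summarises probe sets. Sorted values of the arrays agreed within 0.00186. Background correction could not be varied, and scan dates or other batches are not given in the sources used here. The number of arrays limits the precision.

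Of 25428 probe sets, 723 had no gene symbol in the platform annotation. The probe set with the highest mean was kept per gene, giving 24704 genes. Diets were compared by lmFit and eBayes (limma 3.58.1, R 4.3.3), and two-sided p-values were adjusted over all genes by Benjamini-Hochberg. "Rose" and "fell" mark adjusted p below 0.05. The procedure was tested on simulated data with independent normal noise and the same SD in both diets. That test does not cover a wider spread of the CDAA arrays, as seen for Bmp2. Single quantities were compared with exact permutation tests. P-values measure the spread between pools, which the labels call biological replicates. Same-numbered CDAA and Std arrays correlated at 0.02 to 0.25 in their deviations from the diet means. CDAA 2, CDAA 3 and CDAA 4 correlated best with the Std array of the same number, and CDAA 1 and CDAA 5 with another. Numbers were not taken as pairs in the fit of all arrays, and a further fit blocked on them.

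The 10 genes and the lists (6 of pathway genes, 9 of cell type markers, with 4 genes unmeasured) were chosen with earlier results of these data known. Named are the 10 genes, the called others of each pathway list, at most 5 by size of change, a fixed set (Bmp10, Gdf2, Bmpr1a, Acvr1, Tgfbr3, Smad1, Smad5, Smad9, Smad4, Id2, Id3, Nog, Hamp, Gata4, Mcam) and the 3 genes nearest in pattern to Bmp2, Bmp6 and Id1, predicted and small RNA genes left out. Kupffer cell markers had means of 8.25 ± 0.36 with CDAA and 9.17 ± 0.45 with Std, and T, NK and B cell markers of 5.11 ± 0.17 and 4.89 ± 0.30 (SD, n = 5 each). Gata4 differed by -0.52 (limma adjusted p = 0.0556). The 21 other fits left out each array, left out CDAA 1 and CDAA 3, blocked on replicate number, normalized by quantiles once more, centred array medians, filtered dim genes at the median or the lowest 25%, weighted arrays, used an intensity trend with robust variance, averaged probe sets of a gene, or took a marker mean as covariate. Values relative to marker means were added after seeing the data.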

Additional observations from a re-analysis of the deposited data

Results flagged for a closer look

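Dixon's test at 0.71 for 5 arrays was applied to 110 groups of 5 arrays, and marked 4. Chance marks about 1 group in 20. The neutrophil marker mean of Std 3 was 8.84, against 3.57 to 3.82 on the other Std arrays, and its recruited macrophage marker mean was 6.18, against 5.24 to 5.44. The Kupffer cell marker mean of CDAA 3 was 8.86, against 7.95 to 8.20 on the other CDAA arrays. Smad7 relative to the pan-endothelial mean was -2.18 in CDAA 3, against -2.75 to -2.68 on the other CDAA arrays. Without Std 3, Bmp6 and Bmp2 fell by 1.85 and 1.25 and kept their calls.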

How the results depend on the processing

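Repeated quantile normalization, centred array medians and averaged probe sets changed the call of no pathway gene named here, with 4114, 4118 and 4106 genes called in all. These fits could change little and are no check of the calls. Sorted values of the arrays already agreed within 0.00186, and each of the 10 genes had 1 probe set. Among the 10 genes, leaving out the dimmest 25% of genes and the intensity trend with robust variance changed no call either. The replicate block changed 1 call of these 10, Bmper (0.54), with 4178 genes called against 4106, and Bmper was also called with genes below the median left out (0.54) and with array weights (0.63). Outside the 10, Msx1 lost its call with the block (-0.47) and Gata4 gained one (-0.52), as in 5 further fits. With CDAA 1 and CDAA 3 left out, 2612 genes and 3 of the 10 were called (Bmp2, Bmp6 and Bmper at 0.85), and Eng (-0.36), Bmpr2 (-0.32), Smad6 (-0.41) and Smad7 (-0.34) were not. With the pan-endothelial covariate, 198 genes and 1 of the 10 were called. Estimates were -0.45 for Bmp2, -0.79 for Bmp6, -0.10 for Smad7 and 1.30 for Bmper, and turned sign for Bmp4 (0.66), Eng (0.13), Bmpr2 (0.21), Smad6 (0.069), Smad1 (0.040), Smad4 (0.13), Id3 (0.10) and Gata4 (0.20). With the LSEC covariate, 40 genes and 1 of the 10 were called. Estimates were -0.20 for Bmp2, -0.51 for Bmp6 and 1.51 for Bmper, and turned sign for Bmp4 (1.11), Eng (0.34), Bmpr2 (0.46), Smad6 (0.30), Smad7 (0.022), Acvr1 (0.033), Tgfbr3 (0.26), Crim1 (0.17), Smad1 (0.16), Smad4 (0.21), Id3 (0.16), Unc5b (-0.13), Hamp (-0.19) and Gata4 (0.42). Gata4 is itself 1 of the 12 LSEC markers, so its estimate with the LSEC covariate is partly set against its own signal. The marker means moved with the diet, fewer arrays entered the fits that left arrays out, and the cause of the other changes was not tested.

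Leaving out 1 array gave 2 to 6 calls among the 10 (3 without CDAA 1 or Std 1, and 2 without Std 4) and 2956 to 4572 among all genes. The differences were -0.75 to -0.49 for Eng, -0.76 to -0.47 for Bmpr2, 0.44 to 0.68 for Bmper, -0.83 to -0.57 for Smad6 and -0.59 to -0.43 for Smad7. Those of Gdf2 (-0.17 to 0.069) and Nog (-0.040 to 0.045) crossed 0. Relative to the pan-endothelial mean, leaving out 1 array gave -0.14 to 0.16 for Bmp4, 0.44 to 0.73 for Acvrl1 and 0.16 to 0.31 for Smad7. With CDAA 1 and CDAA 3 left out the relative differences were 0.10 for Bmp4, 0.34 for Acvrl1, 0.12 for Eng and 0.15 for Smad7, the last 3 no longer passing, and with the LSEC mean subtracted they were 0.15 for Bmp4 and 0.26 for Smad6, which then passed. Dim genes such as Bmp10 are limited by signal over background, which is not known here.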
